A study of Homo sapiens with 8 samples.

Results

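The genes described here are 37 regulators and executors of programmed cell death taken as a named list, of which 31 had a row in the table of 11530 genes. They divide into 12 survival genes, of which 10 had a row, and 25 pro-apoptotic genes, of which 21 had a row. BCL2A1, BIRC3, BIK, HRK, BBC3 and FAS had no row and were not analysed here. All 31 passed the filter on low values, which asked for 4 libraries with a linear value of at least 1, and were tested among 11257 genes. The values hold a constant per gene, so passing this filter does not show that a gene had many reads. The 8 RNA-seq libraries came from MonoMac 6, a human cell line derived from an acute monocytic leukaemia. The 4 APRIL libraries came from cells given human APRIL, the cytokine encoded by TNFSF13, at 100 ng/mL for 24 h in medium without serum. The 4 control libraries came from cells without APRIL. According to the series text both media held baseline cytokines, and the labels do not say whether the controls kept the 10% serum of the stock cultures, so APRIL and the removal of serum cannot be told apart. The libraries of a group are numbered in the labels with no statement that they are separate cultures, so p-values reflect spread among libraries that may be technical.

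Apoptosis runs along a mitochondrial and a receptor route. On the mitochondrial route, guardians such as BCL2 and MCL1 hold the pore-forming effectors BAX and BAK1 in check, and BH3-only proteins such as BID, BAD and BCL2L11 (BIM) relieve that block. The pore releases cytochrome c (CYCS), which assembles APAF1 and caspase-9 into the apoptosome, and DIABLO and HTRA2, which displace inhibitor of apoptosis proteins (IAPs). On the receptor route, FAS or the TRAIL receptors TNFRSF10A and TNFRSF10B recruit FADD and caspase-8, and CFLAR blocks that step. In myeloid leukaemia cells MCL1 and BCL2 are well known survival proteins, and TNF family ligands can raise survival genes through NF-kB.

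The values are log2 expression after scaling by the authors, and each is log2 of whole reads plus 0.5, a constant per library and a constant per gene, so levels are compared between libraries and never between genes. Whole reads were recovered for 10655 of the 11530 genes (92.4%) and for 29 of the 31 members, which had between 8 reads (BMF in APRIL column 3) and 951 reads (BCL2 in APRIL column 2) per library. The deepest library, APRIL column 2, had 6.36 times the depth of the shallowest, APRIL column 3. APRIL column 3 and control column 1 stood apart. Over the recovered genes, chi-square per degree of freedom between libraries of a group was 8.92 to 15.03 for pairs with APRIL column 3 and 1.93 to 4.604 for the other APRIL pairs. It was 4.14 to 6.07 for pairs with control column 1 and 1.40 to 1.55 for the other control pairs, so no pair of libraries agreed within counting noise. Of 12 markers of the monocytic line 10 had a row, among them CD14, CD33, LYZ and MPO. Their summed linear levels were 1170 to 1470 in APRIL libraries and 1253 to 1302 in control libraries. The constant per gene sets the weight of each marker in such a sum, and LYZ and MPO had the highest values in every library. The sums therefore do not show whether the other markers kept their level. Of 24 markers of other cell types 6 had a row, among them CD8A, NKG7 and PAX5, and the erythroid, stromal and epithelial markers had none. NKG7 was at 12.19 in APRIL column 3 and at 10.75 to 11.20 in the other libraries, and its part in the results was not tested. In bulk RNA, fewer cells with a transcript and less of it per cell cannot be told apart.

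No member passed limma's threshold between APRIL and control, an adjusted p under 0.05 (smallest adjusted p = 0.400). By the same test 0% of the 11257 genes passed, as with voom on the recovered reads, and with library quality weights 4 genes passed (0.0355%), none of them a member. At an unadjusted p under 0.05 there were 3 members, BID and FADD above control and BCL2L2 below it. That is 9.68% of the 31, against 11.9% of all genes tested, a share near the background. In all genes 6.25% were above and 5.69% below control at that p. The groups of 4 members did not overlap: BID and FADD were above control in every APRIL library, and BCL2L2 and MCL1 below it. They are 12.9% of the members, against 7.81% of all genes tested (3.62% above and 4.19% below). For MCL1 the groups were apart only in the last digit, with 11.785 in APRIL column 1 and 11.786 in control column 4. Single libraries moved these counts: without control column 1 no member had an unadjusted p under 0.05 (4.49% of all genes did), without it and APRIL column 3 there was 1 (7.49% of all genes), and without APRIL column 2 there were 8 (20% of all genes). Without APRIL column 2 the groups of 10 members did not overlap (23.7% of all genes), and without control column 4 those of 7 did not (15.3%). Groups that are apart stay apart when a library is left out, so this count could only stay or rise. The median 95% half-width of a member's change was 0.36 on the log2 scale, which bounds what 4 libraries per group could resolve.

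**Figure D1:**
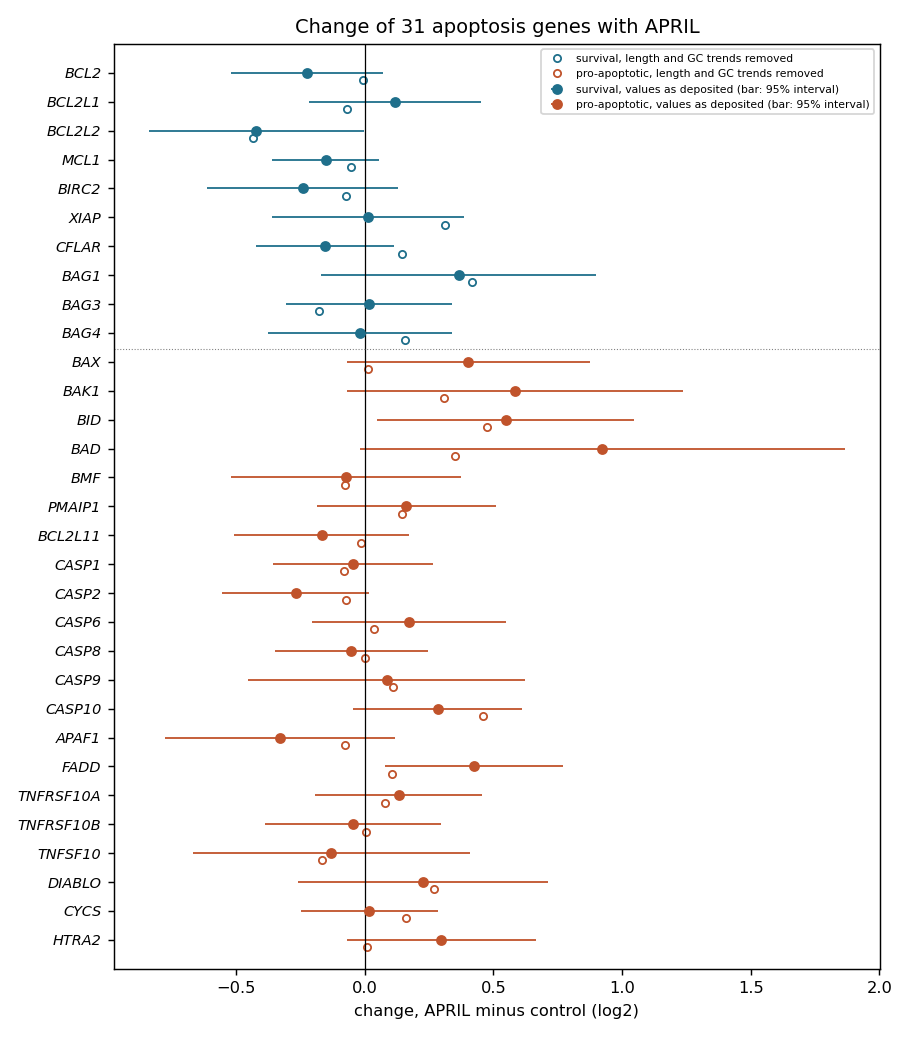
Change of each of the 31 genes, APRIL minus control on the log2 scale, with survival genes above the dotted line and pro-apoptotic genes below it. Filled points with bars are limma changes with 95% intervals on the values as deposited, and open points are the changes after trends with transcript length and GC content were removed in each library. The widest interval is that of BAD (-0.02 to 1.87), whose open point is at +0.35.

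Among the BCL2-like guardians, which bind and block the effectors, 3 of 4 measured genes had lower means with APRIL. With the length and GC trends removed all 4 did, but 3 of these changes were smaller than their SE from limma. They were -0.0059 ± 0.094 for BCL2, -0.053 ± 0.063 for MCL1 and -0.071 ± 0.098 for BCL2L1. Of all genes 49.3% had a positive change as deposited and 47.5% with the trends removed. BCL2L2, which encodes BCL-w, had log2 values of 3.91, 3.95, 3.18 and 3.86 in APRIL columns 1 to 4, against 4.16, 4.15, 4.26 and 4.01 in control columns 1 to 4. Every APRIL value lay below every control value, and APRIL column 3 was lowest by far. That library held 22 reads of BCL2L2, against 125, 243 and 135 in APRIL columns 1, 2 and 4. The change was -0.42 ± 0.19 (SE from limma, 4 libraries per group, adjusted p = 0.400), and it was -0.24 without APRIL column 3. MCL1, a short-lived guardian on which many myeloid cells depend, had log2 values of 11.79, 11.78, 11.76 and 11.76 in APRIL columns 1 to 4, against 12.01, 11.97, 11.93 and 11.79 in control columns 1 to 4. The APRIL libraries lay within a narrow band, and their highest value, 11.785, was barely under the lowest control, 11.786 in control column 4. The change was -0.15 ± 0.09 (limma adjusted p = 0.427), a mean of 11.77 ± 0.01 with APRIL and 11.92 ± 0.10 in control (SD, n = 4 each). With the length and GC trends removed it was -0.053. BCL2, the founding member and the target of venetoclax, had 455, 951, 122 and 510 reads in APRIL columns 1 to 4, against 451, 266, 327 and 492 in control columns 1 to 4, at library depths that differ. Its log2 values were 6.13, 6.28, 5.99 and 6.15 in APRIL columns 1 to 4, against 6.59, 6.42, 6.27 and 6.19 in control columns 1 to 4. The groups overlapped, since APRIL column 2 lay above control columns 3 and 4. Its change was -0.22 ± 0.13, with a 95% interval of -0.52 to 0.07. BCL2L1, which encodes BCL-xL and is a known NF-kB target, had a sign that depended on the processing: its change was +0.12 ± 0.15 as deposited and -0.071 with the length and GC trends removed. Its log2 values spanned 5.67 to 6.15 in APRIL libraries and 5.53 to 5.93 in control libraries, so the ranges overlapped.

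For the IAPs, CFLAR and the BAG cochaperones the groups overlapped in the values as deposited. BIRC2 (cIAP1), a ubiquitin ligase of TNF receptor complexes, had log2 values of 2.14, 2.20, 2.26 and 2.25 in APRIL columns 1 to 4, against 2.73, 2.48, 2.44 and 2.16 in control columns 1 to 4. Control column 4 lay among the APRIL libraries, and the change was -0.24 ± 0.17. It was -0.15 without control column 1 and -0.073 with the length and GC trends removed. XIAP, a direct inhibitor of caspases, averaged 6.72 ± 0.07 with APRIL and 6.71 ± 0.34 in control (SD, n = 4 each), and control column 1, at 7.200, lay far above the other controls. Its change was +0.01 ± 0.17 as deposited and +0.31 with the trends removed. XIAP then stood at 7.20 in APRIL column 3, at 6.64 to 6.84 in the other APRIL libraries and at 6.42 to 6.78 in control libraries. CFLAR, the decoy of caspase-8 and a textbook NF-kB target, had log2 values of 8.14, 8.29, 8.10 and 8.17 in APRIL columns 1 to 4, against 8.40, 8.49, 8.34 and 8.10 in control columns 1 to 4. Its change was -0.15 ± 0.12 as deposited, where control column 4 was lowest of all, and +0.14 with the trends removed. CFLAR then stood at 8.64 in APRIL column 3, at 8.16 to 8.33 in the other APRIL libraries and at 8.07 to 8.33 in control libraries. Of the BAG proteins, which tie HSP70 chaperones to survival, BAG1 had the largest positive change of any survival gene, +0.37 ± 0.24, and it was +0.11 without APRIL column 3, where BAG1 stood at 5.96. BAG3 gave +0.02 ± 0.15 as deposited and -0.18 with the trends removed, where its groups were barely apart. Its highest APRIL value was then 4.280, in APRIL column 1, and its lowest control value 4.283, in control column 1. BAG4, known as a silencer of death domains, gave -0.02 ± 0.16 as deposited and +0.16 with the trends removed. BAG4 then stood at 8.96 in APRIL column 3, at 8.25 to 8.40 in the other APRIL libraries and at 8.20 to 8.39 in control libraries.

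In the values as deposited BAD, BAK1 and BID had the largest positive changes of the members, and with the trends removed BID, CASP10 and BAG1 did. BID, which caspase-8 cleaves to link the receptor route to mitochondria, had 267, 435, 134 and 257 reads in APRIL columns 1 to 4, against 126, 98, 119 and 228 in control columns 1 to 4. Scaled by the authors, its log2 values were 3.62, 3.41, 4.39 and 3.42 in APRIL columns 1 to 4, against 3.01, 3.24, 3.07 and 3.34 in control columns 1 to 4. All APRIL libraries lay above the highest control, column 4, and APRIL column 3 was highest. The change was +0.55 ± 0.22, a 1.46-fold difference (limma adjusted p = 0.400). It was +0.32 without APRIL column 3 and +0.48 with the length and GC trends removed. Leaving out APRIL column 3, the highest APRIL library for BID, could not make the groups overlap. BAD, which neutralises BCL2 and BCL-xL when survival kinases do not phosphorylate it, had the largest change of all members as deposited, +0.92 ± 0.42 (limma adjusted p = 0.400). Its log2 values were 5.28, 4.69, 6.98 and 5.78 in APRIL columns 1 to 4, against 4.18, 4.71, 5.13 and 5.02 in control columns 1 to 4. APRIL column 3 was highest by far, and APRIL column 2 lay below control columns 2, 3 and 4. Without APRIL column 3 the change of BAD was +0.49, and with the trends removed it was +0.35. The effector BAX had log2 values of 7.44, 7.33, 8.25 and 7.79 in APRIL columns 1 to 4, against 6.96, 7.26, 7.51 and 7.47 in control columns 1 to 4, and the groups overlapped. Its change was +0.40 ± 0.21, and +0.22 without APRIL column 3. BAK1, the other effector, had a change of +0.58 ± 0.29, with 4.26 in APRIL column 3 and 2.54 to 3.23 in the other libraries, and of +0.27 without that library and +0.31 with the trends removed. Among the remaining BH3-only genes PMAIP1 (NOXA), the selective antagonist of MCL1, gave +0.16 ± 0.16, BCL2L11 gave -0.17 ± 0.15 and BMF gave -0.07 ± 0.20. BMF rested on few reads, 8 to 79 per APRIL library and 13 to 49 per control library.

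**Figure D2:**
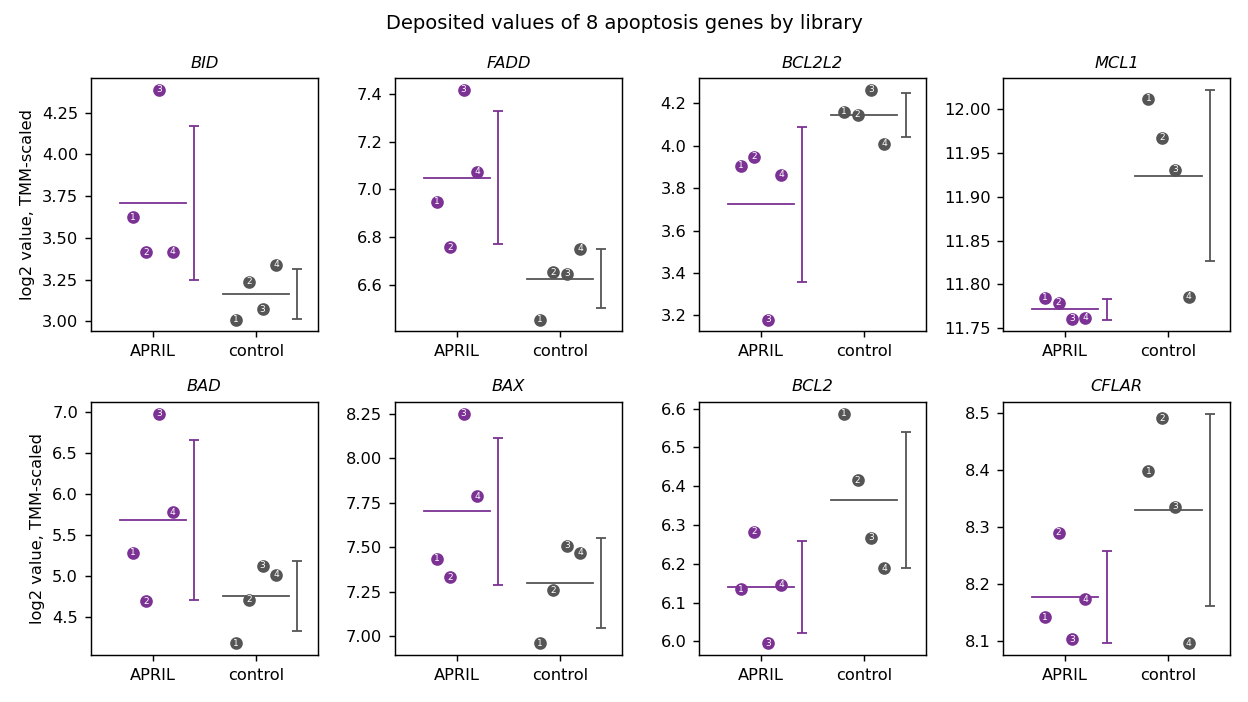
Deposited log2 values of 8 genes by library, APRIL left and control right, with a line at the mean, a bar of ± 1 SD (n = 4) and each point numbered by its column. BID and FADD lay above, and BCL2L2 and MCL1 below, every control library, whereas BAD, BAX, BCL2 and CFLAR overlapped. For MCL1 the highest APRIL value was 11.785 and the lowest control value 11.786. APRIL column 3 was the highest library for BID, FADD, BAD and BAX.

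FADD, the adaptor between death receptors and caspase-8, had the smallest unadjusted p of the members in limma (unadjusted p = 0.0212, limma adjusted p = 0.400). It had 164, 271, 67 and 199 reads in APRIL columns 1 to 4, against 84, 64, 87 and 149 in control columns 1 to 4. The log2 values were 6.95, 6.76, 7.42 and 7.07 in APRIL columns 1 to 4, against 6.45, 6.65, 6.65 and 6.75 in control columns 1 to 4. The APRIL libraries lay above all controls, though APRIL column 2 barely exceeded control column 4. The change of FADD was +0.42 ± 0.16, a 1.34-fold difference, and +0.11 with the length and GC trends removed. The receptors and their ligand did not separate. TNFRSF10A (DR4) gave +0.13 ± 0.15, TNFRSF10B (DR5) -0.05 ± 0.15 and TNFSF10, which encodes TRAIL, -0.13 ± 0.24. For TNFSF10 the highest library was control column 1 at 7.10, followed by APRIL column 3 at 6.86, and its change was +0.059 without control column 1 and -0.28 without APRIL column 3.

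The caspases were divided, 3 with a positive and 3 with a negative change, and none passed. CASP10, a receptor-proximal initiator next to caspase-8, had log2 values of 7.47, 7.54, 7.96 and 7.55 in APRIL columns 1 to 4, against 7.47, 7.12, 7.49 and 7.30 in control columns 1 to 4. Control columns 1 and 3 lay just above APRIL column 1 and below the other APRIL libraries. Its change was +0.28 ± 0.15 as deposited and +0.46 with the trends removed, where the groups no longer overlapped and the unadjusted p was 0.035 in limma. CASP10 then stood at 8.31 in APRIL column 3, at 7.46 to 7.61 in the other APRIL libraries and at 7.04 to 7.43 in control libraries. CASP8 itself had a change of -0.05 ± 0.13 (95% interval -0.35 to 0.24), with 5.97 to 6.22 in APRIL libraries and 5.93 to 6.38 in control libraries. CASP2, an initiator linked to DNA damage and mitotic stress, had log2 values of 6.89, 7.20, 6.79 and 7.05 in APRIL columns 1 to 4, against 7.25, 7.35, 7.29 and 7.11 in control columns 1 to 4. Only APRIL column 2 reached into the control range, and the change was -0.27 ± 0.13 (limma adjusted p = 0.400), or -0.072 with the trends removed. CASP9, the caspase of the apoptosome, gave +0.09 ± 0.24, CASP6, an executioner, +0.17 ± 0.17 and CASP1, which serves inflammasomes and pyroptosis rather than apoptosis, -0.05 ± 0.14. APAF1, the scaffold of the apoptosome, had log2 values of 8.22, 8.51, 7.66 and 8.32 in APRIL columns 1 to 4, against 8.83, 8.64, 8.30 and 8.27 in control columns 1 to 4. Its change was -0.33 ± 0.20, and APRIL column 3, with 20 reads, was the lowest library. Leaving that library out gave -0.16, and removing the trends gave -0.078. Of the proteins that leave mitochondria, CYCS averaged 9.34 ± 0.15 with APRIL and 9.33 ± 0.13 in control (SD, n = 4 each), a change of +0.02 ± 0.12. HTRA2, a serine protease that cleaves IAPs, gave +0.30 ± 0.16 and +0.0077 with the trends removed. DIABLO gave +0.23 ± 0.22, with 5.84 in APRIL column 3. Its remaining APRIL values were 4.69 to 5.12, against control values of 4.86 to 4.98. Without that library its change was -0.00082.

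Set side by side, the pro-apoptotic genes had a median change of +0.13 (13 of 21 positive) and the survival genes a median of -0.085 (4 of 10 positive), where all 11257 genes had a median of -0.0053 and 49.3% positive. The members were listed with earlier results known, so these medians carry no test. The mean deviation of the 21 pro-apoptotic genes from their gene means was +0.032, -0.058, +0.33 and -0.0014 in APRIL columns 1 to 4, against -0.070, -0.059, -0.11 and -0.061 in control columns 1 to 4. APRIL column 2 was barely above the highest control library, and APRIL column 3 stood far above all others. For the 10 survival genes the mean deviation was -0.054, -0.058, +0.040 and -0.068 in APRIL columns 1 to 4, against +0.095, +0.075, +0.043 and -0.074 in control columns 1 to 4. Control column 4 was the lowest library of all, and APRIL column 3 lay close to control column 3. APRIL column 3 was the highest library for 12 of the 21 pro-apoptotic genes and for 3 of the 10 survival genes. Without it the median changes were +0.053 for pro-apoptotic genes and -0.14 for survival genes, and without it and control column 1 they were +0.018 and -0.099.

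**Figure D3:**
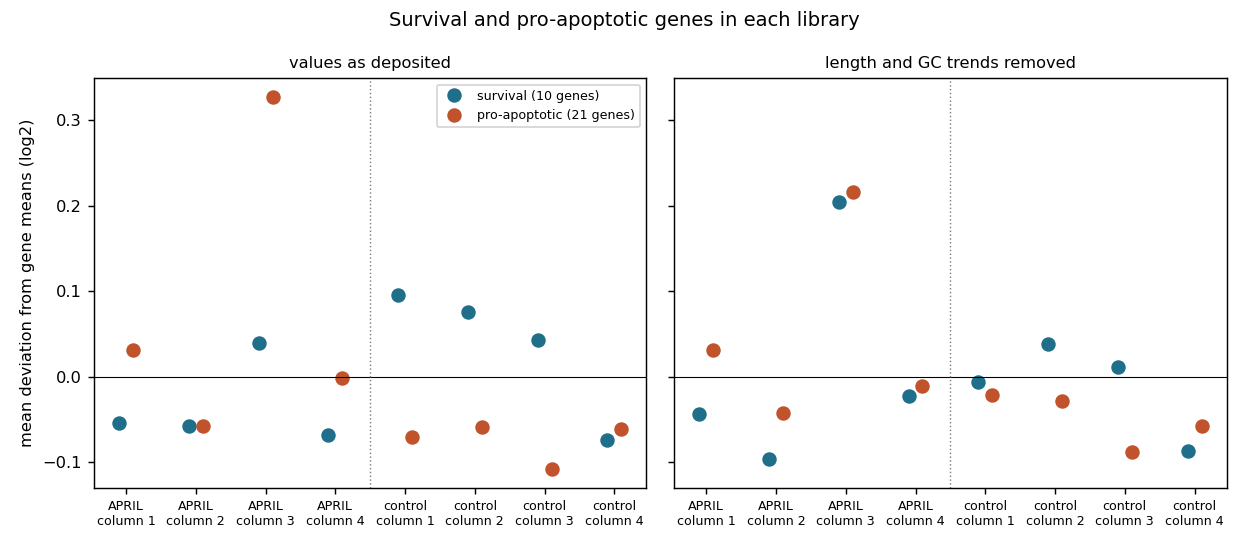
Mean deviation of the 21 pro-apoptotic and the 10 survival genes from their gene means in each library (log2), APRIL columns left of the dotted line and control columns right of it. In the values as deposited the pro-apoptotic genes stand at +0.33 in APRIL column 3, and with the length and GC trends removed both sides stand together there, at +0.22 and +0.20.

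The members' changes followed the length and base composition of their transcripts, as did those of all genes. Over the 31 members Spearman's rho between the change and the length of the longest transcript was -0.62, and between the change and its GC content 0.50. Over the 10359 tested genes with a transcript these were -0.54 and 0.51. Genes share the same 8 libraries, so these correlations are descriptions. The 7 members with over 55% GC, a division chosen after the values were seen, all had a positive change: BCL2L1, BAG3, BAX, BAK1, BAD, FADD and HTRA2, with a median of +0.40. Of the 2914 tested genes over 55% GC, 78.8% had a positive change. With the trends removed the median of the 7 was +0.014, and BCL2L1 and BAG3 were negative. The other 24 members had a median of -0.046, with 10 positive, and of +0.021 with the trends removed. BAD, with the largest change, has the shortest transcript (1157 bases) and the highest GC content (66.3%) of the members. CFLAR (14672 bases), XIAP (8591 bases), BCL2 (7461 bases) and APAF1 (7055 bases) have the longest. The libraries themselves differed in these trends. The deviation of all genes went with transcript length at a rho of -0.073, 0.41, -0.56 and -0.24 in APRIL columns 1 to 4, against 0.42, 0.36, 0.28 and 0.15 in control columns 1 to 4. With GC content it went at 0.33, -0.038, 0.20 and 0.65 in APRIL columns 1 to 4, against -0.74, 0.081, -0.21 and 0.018 in control columns 1 to 4. APRIL column 4 and control column 1 were the extremes for GC, and APRIL column 3 for length.

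**Figure D4:**
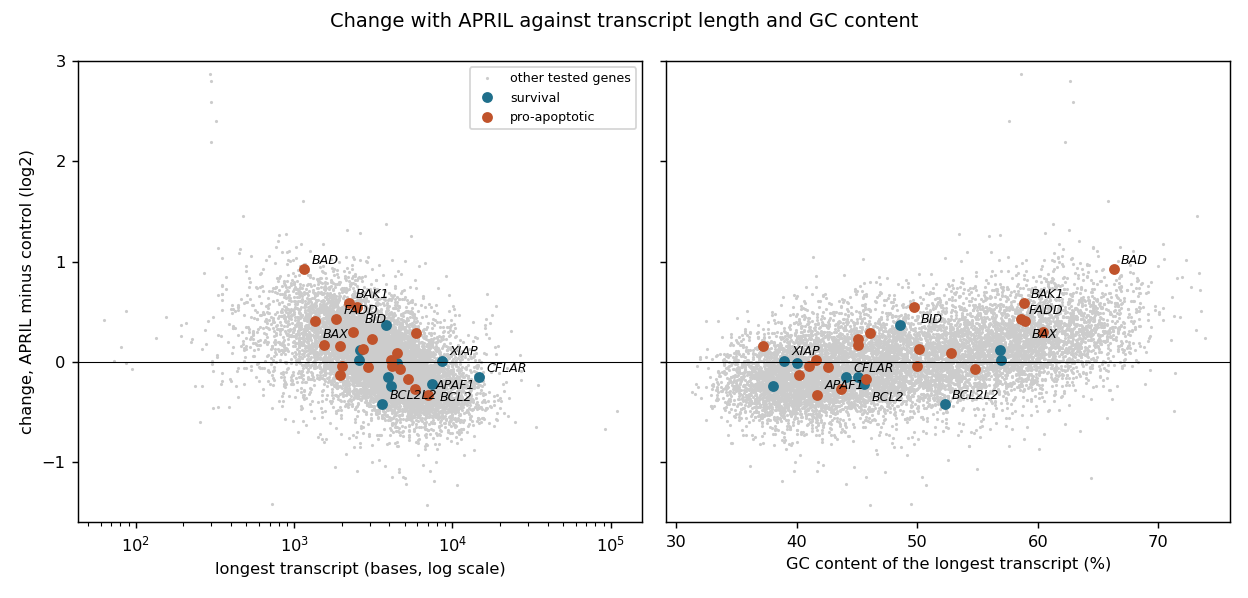
Change of each gene, APRIL minus control on the log2 scale, against the length (left, log axis) and the GC content (right) of its longest transcript. Grey points are the other tested genes, blue points survival genes and orange points pro-apoptotic genes. BAD, BAX, BAK1 and FADD lie with the short, GC-rich genes of the table, and BID and BCL2L2 stand near the middle of the GC range.

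When each library's trend with length and GC was removed, the pro-apoptotic median was +0.035 and the survival median -0.030, against -0.013 for all 10359 genes. The number of positive changes was 15 of 21 for pro-apoptotic genes and 4 of 10 for survival genes, against 47.5% of all genes. The 15 include CASP8 at +0.0012 and TNFRSF10B at +0.0064, which were negative as deposited. The other 6 pro-apoptotic genes were negative in this fit. The mean of the survival genes then differed in sign from their median, at +0.021. Over the survival genes the rho between change and transcript length was -0.33 as deposited and 0.59 with the trends removed, opposite in sign. Over the pro-apoptotic genes it was -0.62 as deposited and -0.19 with the trends removed. BAX and HTRA2 were then at +0.014 and +0.0077, BCL2 at -0.0059 and FADD at +0.11. The difference between BAX and BCL2, often read as a balance of death and survival signals, also differed between the fits. BAX minus BCL2 on the log2 scale was 1.30, 1.05, 2.26 and 1.64 in APRIL columns 1 to 4, against 0.37, 0.84, 1.24 and 1.28 in control columns 1 to 4. Its mean difference of 0.63 between APRIL and control was 0.020 with the trends removed, where the values were 1.20 to 1.36 in APRIL libraries and 1.07 to 1.44 in control libraries. The longest transcript of BAX has 1358 bases and 58.9% GC, that of BCL2 7461 bases and 45.6% GC. Trends were removed without regard to group, so any effect of APRIL that goes with length or GC was removed too. BID (+0.48, unadjusted p = 0.0297), CASP10 (+0.46) and XIAP (+0.31, unadjusted p = 0.0403) were then the members with a positive change and an unadjusted p under 0.05 in limma, and BCL2L2 (-0.44, unadjusted p = 0.0247) the member with a negative one. These 4 are 12.9% of the members, against 8.28% of all genes in that fit, and none passed the adjusted threshold. BID and BCL2L2 were the members with groups apart in both fits, and MCL1 and FADD were not apart with the trends removed, where BAG3 and CASP10 were (4 members, against 6.61% of all genes).

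Promoters are shown for BID, BAX and CFLAR, because BID stood apart in both fits, BAX had the most matches and CFLAR, a textbook NF-kB target, held the match of that type. RefSeq windows of the 250 bases before a transcript start (GRCh38.p14) were matched by symbol for 24 of the 31 members and searched on both strands. The E-box CACGTG, bound by MYC and USF proteins, was in a window of 2 of the 24 (8.33%), BID and BAX, against 7.73% of 27305 genes. An NF-kB type sequence, whose match is shown in capitals for CFLAR, was in 1 of the 24 (4.17%), CFLAR, against 1.94% of genes. The AP-1 sequence TGANTCA was in 3 (12.5%), BAG3, CASP8 and CFLAR, against 8.06%. A match is only a run of letters in these windows. Matches are in capitals. The BID window is chr22:17774043-17774292 on the minus strand, with its match starting 47 bases before the transcript start. The BAX window is chr19:48954625-48954874 on the plus strand and holds 4 matches. The CFLAR window is chr2:201118466-201118715 on the plus strand, with its match starting 97 bases before the start.
BID: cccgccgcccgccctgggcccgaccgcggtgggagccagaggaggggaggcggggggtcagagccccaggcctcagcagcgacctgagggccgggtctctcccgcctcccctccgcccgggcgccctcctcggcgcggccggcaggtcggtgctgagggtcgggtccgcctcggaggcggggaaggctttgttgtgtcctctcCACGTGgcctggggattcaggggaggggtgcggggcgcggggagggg
BAX: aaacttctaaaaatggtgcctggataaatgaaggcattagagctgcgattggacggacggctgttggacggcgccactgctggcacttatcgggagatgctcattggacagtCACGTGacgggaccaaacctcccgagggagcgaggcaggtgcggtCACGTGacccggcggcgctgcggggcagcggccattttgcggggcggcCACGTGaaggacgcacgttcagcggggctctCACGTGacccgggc
CFLAR: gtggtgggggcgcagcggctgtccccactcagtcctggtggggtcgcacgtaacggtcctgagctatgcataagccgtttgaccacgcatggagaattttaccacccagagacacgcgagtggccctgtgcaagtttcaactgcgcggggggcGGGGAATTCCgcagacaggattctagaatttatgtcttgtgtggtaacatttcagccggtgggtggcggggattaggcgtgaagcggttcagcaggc
The windows have a GC content of 78.0% for BID, 62.8% for BAX and 58.8% for CFLAR.

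Beyond the members, a list of 63 other genes of the pathway had 48 with a row and 47 tested. None passed in limma, 4 had an unadjusted p under 0.05 (8.51%, against 11.9% of all genes), and 25 had changes below 0 and 22 above it (median -0.0092). XAF1, an antagonist of XIAP and a known interferon target, gave -0.48 ± 0.18 and stood on 7 to 69 reads per APRIL library and 22 to 36 per control library. BIRC6, a giant IAP with a transcript of 15703 bases, gave -0.57 ± 0.22, and -0.25 with the trends removed. TRAF2, the partner of BIRC2 at TNF receptors, gave +0.35 ± 0.16, and +0.033 with the trends removed. GSDMD, the pore of pyroptosis, gave +0.50 ± 0.22, and +0.22 with the trends removed.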

How the data were processed

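The table holds 11530 genes in 4 APRIL and 4 control libraries. The authors scaled each library by a TMM factor, per the file headers, and the range of the values, with some below 0, shows that the deposited values are log2. Per the submitters' processing notes TopHat2 2.0.13, bcl2fastq and the build hg19 were used. For the counter, annotation and gene filter the sources used here give nothing. Per the labels' protocols libraries were made with the TruSeq RNA v2 kit, which does not mark strand, so overlapping and antisense genes cannot be told apart. Column headers give the group and no replicate number.

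Whole reads were recovered where 8 values were log2 of whole reads plus 0.5 plus constants, with a chance expectation under 0.001. With the constants moved, 0 of 500 genes were solved. The recovered totals were 721536 to 4234642 reads per library. limma 3.58.1 in R 4.3.3 was run with trend and robust options, two-sided over 11257 genes with Benjamini-Hochberg adjustment and was tested on simulated data. The simulated noise was independent between genes and held no trends with length or GC. That test therefore does not show how limma behaves with such trends. Transcript length and GC content were those of the longest GENCODE transcript matched by symbol, and natural splines in both were subtracted per library. The splines held no term for group. The alternatives were no filter, a stricter filter, median centring, limma without trend or robust options, library quality weights, length and GC trends removed, each library left out, and, chosen after the data were seen, APRIL column 3 and control column 1 both left out and voom on the recovered reads. The authors' own p-values and fold changes were not used. Python 3.11.15, numpy 2.4.6, pandas 2.3.3 and matplotlib 3.10.9 were used. Members and lists were chosen with earlier results of these data known. Every member with a row is named, and of the other pathway genes those at an unadjusted p under 0.05. Some items are not reported here.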

Additional observations from a re-analysis of the deposited data

Results flagged for a closer look

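In 7 of 70 groups of 4 libraries 1 library stood far from the other 3, past Dixon's 95% critical value. Chance flags about 1 in 20 such groups. In APRIL column 3, the shallowest library, BCL2L2 was at 3.18, with the others at 3.86 to 3.95, and BMF was at 6.19 on 8 reads, with the others at 6.67 to 6.75. BCL2L11 was at 2.58 there, with the others at 2.90 to 2.92, and CASP10 at 7.96, with the others at 7.47 to 7.55. BAG3 was at 4.15 in APRIL column 2, with the others at 4.31 to 4.34. In control column 2, PMAIP1 was at 5.84, with the others at 6.17 to 6.20, and CASP6 at 6.26, with the others at 5.83 to 5.88.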

How the results depend on the processing

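No member passed the adjusted threshold under any of 16 alternatives (smallest adjusted p = 0.199, with library quality weights), and 17 of the 31 kept their sign in all of them. No paired analysis was possible because the columns carry no replicate number. Leaving out each library gave 0 to 8 members at an unadjusted p under 0.05. It gave 4 to 10 whose groups did not overlap, a count that a left-out library cannot lower. The survival median was then -0.14 to -0.067 and the pro-apoptotic median 0.053 to 0.20. Without both APRIL column 3 and control column 1, an alternative chosen after the data were seen, 1 member had an unadjusted p under 0.05 and the pro-apoptotic median was 0.018. In that fit BCL2L1 was at -0.050, BAG3 at -0.096, BMF at 0.15, TNFRSF10A at -0.035 and CYCS at -0.026. With library quality weights BCL2L1 was at -0.016, BAG3 at -0.020, BMF at 0.040, CASP1 at 0.077, CASP8 at 0.011, TNFRSF10B at 0.054 and CYCS at -0.050. With the length and GC trends removed BCL2L1 was at -0.071, CFLAR at 0.14, BAG3 at -0.18, BAG4 at 0.16, CASP8 at 0.0012 and TNFRSF10B at 0.0064. With voom on the recovered reads, also chosen after the data were seen, XIAP was at -0.0033. Leaving out each library gave -0.081 to 0.18 for XIAP, -0.085 to 0.070 for BAG3, -0.14 to 0.083 for BAG4, -0.24 to 0.057 for BMF, -0.11 to 0.037 for CASP1, -0.12 to 0.030 for CASP8, -0.057 to 0.29 for CASP9, -0.16 to 0.034 for TNFRSF10B, -0.28 to 0.059 for TNFSF10, -0.00082 to 0.38 for DIABLO and -0.054 to 0.052 for CYCS. The cause of each shift was not tested.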
